A study of Mus musculus with 12 samples.

Results

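Mitophagy and mitochondrial dynamics were followed through 9 genes picked by name for their known roles, of 57490 genes counted in mouse kidney: Pink1, Bnip3, Bnip3l, Fundc1, Mfn1, Mfn2, Opa1, Dnm1l and Fis1. All 9 passed the filter on low counts and were among the 17431 genes tested. Polyadenylated RNA was sequenced from the kidneys of 12 male mice aged 13 weeks, with 4 mice to a group. Ctrl animals were db/m, heterozygous for the db allele of the leptin receptor and described in 1 label as wild-type. The Model and YHY mice were db/db (BKS.Cg-Dock7m +/+ Leprdb/JNju), in which the receptor is mutated in every cell of the body, and they had been selected for a high random blood glucose. YHY mice took a water extract of Yiqi Huoxue Yangyin Decoction, a formula of botanical drugs, at 6.24 g/mL by oral gavage once daily for 4 weeks, and the Ctrl and Model mice took purified water instead. The study used several doses per body weight, and the labels do not say which of them the sequenced YHY mice had. Each sample is labelled as whole tissue of the kidney, whereas the series design speaks of renal cortex.

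Library totals ran from 24415658 to 33276634 counts. Transcripts of the mitochondrial genome made up 19.5% ± 2.12 of the counts in Ctrl (SD, n = 4), 52.2% ± 7.68 in Model and 56.8% ± 5.21 under YHY. The 95% Wilson interval of any single mouse's share was at most 0.0396 percentage points wide, which covers counting error only. Every Model and YHY mouse, at 41.2% to 64.6%, stood above every Ctrl mouse, at 18.4% to 22.7%. Levels are given as CPM, a gene's counts over a fixed number of counts of the TMM-scaled library. Markers of the proximal tubule, thick ascending limb and collecting duct were all present.

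Mitophagy is the removal of damaged or surplus mitochondria by autophagy. The kinase Pink1 builds up on depolarised mitochondria and phosphorylates ubiquitin, which leads to the recruitment of adaptor proteins, while the receptors Bnip3, Bnip3l (also called Nix) and Fundc1 sit in the outer membrane and bind the autophagosome protein LC3 directly. Mitochondria also fuse, through Mfn1 and Mfn2 at the outer membrane and Opa1 at the inner membrane, and divide, through the dynamin Dnm1l (Drp1) and outer-membrane proteins such as Fis1; tubule cells of the kidney are packed with mitochondria and depend on them for transport work.

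Levels of different genes were compared as CPM per kilobase of gene length. In Ctrl, Pink1 stood highest at 101 ± 18.8 CPM per kilobase, followed by Fis1 at 80.4 ± 9.0, and Opa1 stood lowest at 9.28 ± 0.681. Between them came Bnip3l at 24.2 ± 1.64, Mfn2 at 18.9 ± 1.63, Bnip3 at 18.4 ± 0.819, Dnm1l at 12.1 ± 0.815, Mfn1 at 11.3 ± 0.363 and Fundc1 at 10.4 ± 1.80. Neighbours in this order whose mice overlapped were Pink1 and Fis1, Mfn2 and Bnip3, and each successive pair from Dnm1l through Mfn1 and Fundc1 to Opa1. In Model, Bnip3 stood below Mfn1 and Dnm1l at 8.76 ± 0.690 CPM per kilobase, and Fundc1 was last at 5.03 ± 1.1. The Model neighbours that overlapped were Bnip3l and Mfn2, Mfn1 and Dnm1l, and Opa1 and Fundc1. In YHY, Fis1 at 63.5 ± 6.24 and Pink1 at 55.6 ± 7.07 CPM per kilobase overlapped at the top, and Mfn1, Dnm1l, Bnip3l and Mfn2 overlapped each with the next from 16.3 ± 5.86 down to 13.3 ± 0.866. Opa1 at 4.68 ± 0.694 and Fundc1 at 4.22 ± 0.917 overlapped at the bottom. Taken within each mouse, the order of some of these overlapping neighbours was the same throughout a group: Pink1 above Fis1 in 4 of 4 Ctrl mice, Fis1 above Pink1 in 4 of 4 YHY mice and Opa1 above Fundc1 in 4 of 4 Model mice. For the other overlapping neighbours the gene with the higher mean was above in 1 to 3 of the 4.

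**Figure D1:**
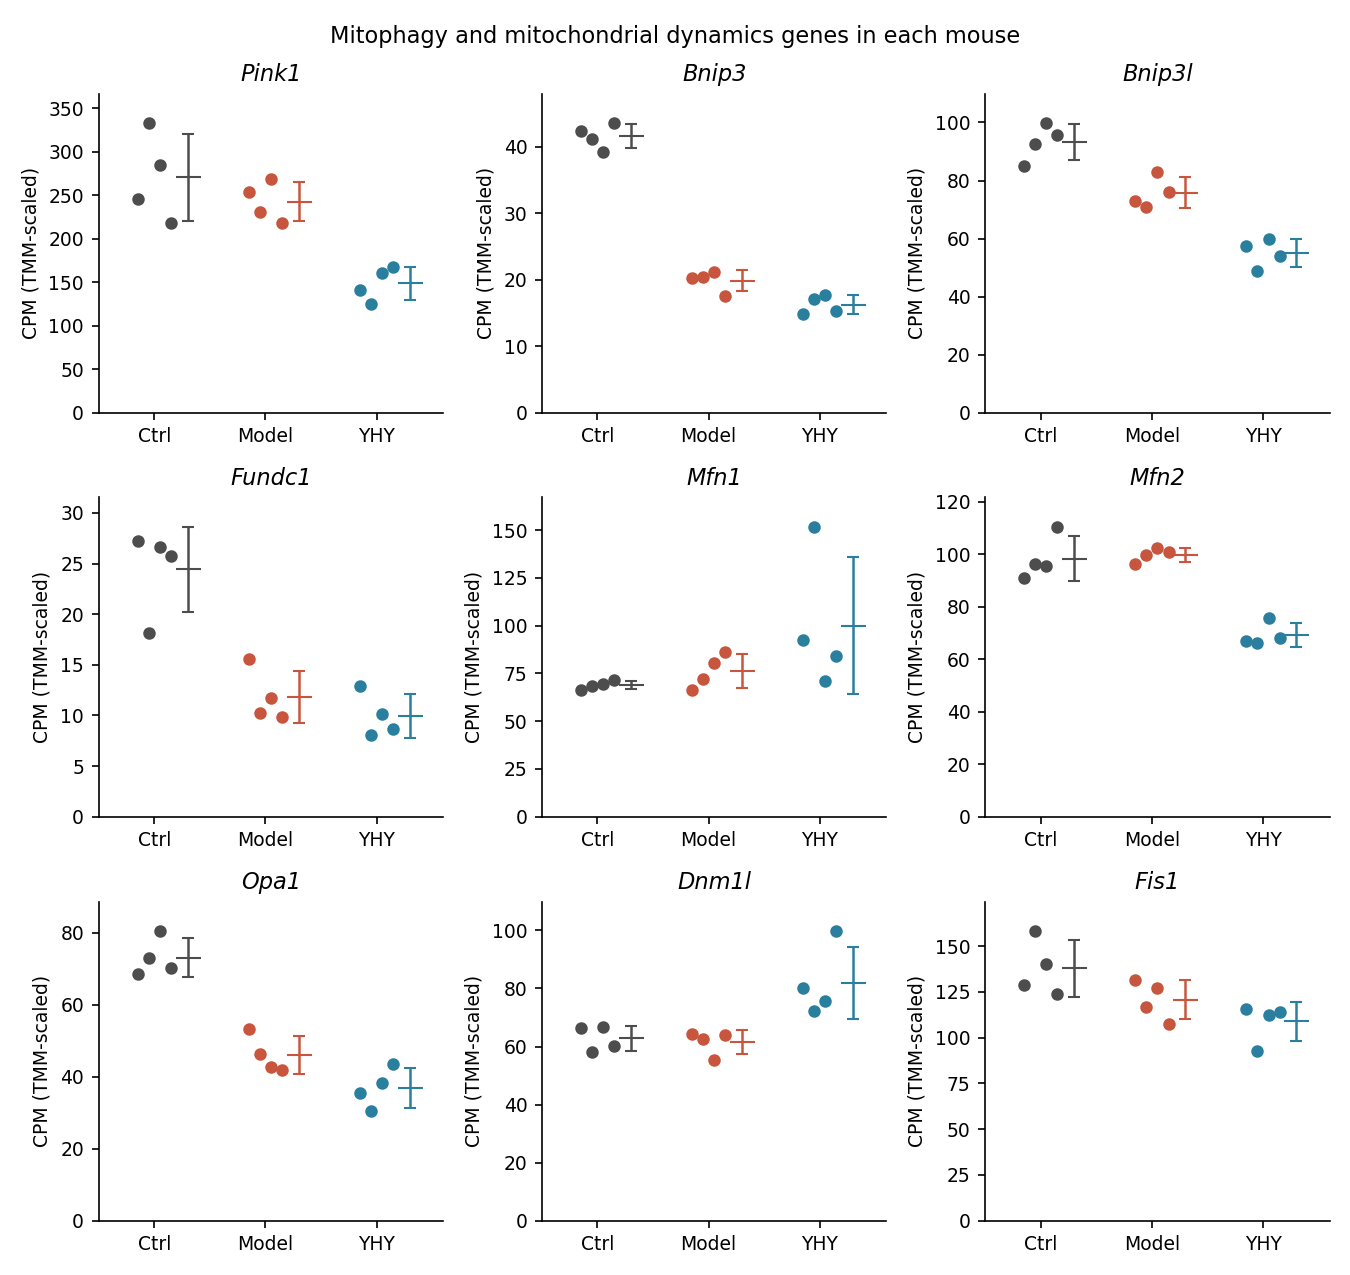
Level of each of the 9 genes in every mouse, in CPM of the TMM-scaled library, for Ctrl, Model and YHY (n = 4 each); points are mice and crosses with whiskers the group mean with its SD. Every Model and YHY mouse lies below every Ctrl mouse for Bnip3, Bnip3l, Fundc1 and Opa1, and every YHY mouse lies below every Model mouse for Pink1, Bnip3l and Mfn2. Bnip3l was not called in Model against Ctrl (edgeR with TMM, adjusted P = 0.0692). How many of all genes separate the groups in this way was not computed.

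The comparison of Model with Ctrl asks what the diabetic kidney differs in. Bnip3, Fundc1 and Opa1 fell, each past an adjusted P of 0.05 in edgeR's quasi-likelihood test (Benjamini-Hochberg adjusted across every gene tested), and none of the 9 rose. At an unadjusted P under 0.05, 0 of the 9 were higher by edgeR or by DESeq2. Bnip3 and Fundc1 are receptors of mitophagy and Opa1 is the fusion protein of the inner membrane. Across all genes tested, 18.5% were called lower in Model and 19.6% were called higher with TMM, a split that other scalings change. The median log2 fold change of the 9 genes was −0.19, beside 0.04 over all genes tested. By the study's own limits, a fold change over 1.2 with an unadjusted P under 0.05, 4 of the 9 passed in either direction, beside 46.9% of all genes.

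The comparison of YHY with Model asks what the extract goes along with in the diabetic kidney. With TMM on all mice and edgeR's own filter on low counts, Pink1, Mfn2 and Bnip3l fell and none of the 9 rose by edgeR. Dnm1l was higher there at an unadjusted P under 0.05 and was called by DESeq2. Some other settings of edgeR called Dnm1l higher, such as upper-quartile scaling (adjusted P = 0.0415) and library size without the mitochondrial genome (0.0172). Library size alone left 0 of the 9 called by edgeR. Whether the differences between YHY and Model differ from those in Model against Ctrl was not tested. Over all genes tested, 7.62% were called lower in YHY and 5.63% were called higher with TMM. Library size without the mitochondrial genome turned this split, with 830 genes lower and 1509 higher. The median of the 9 was −0.29, beside 0.02 over all genes, and 6 of the 9 passed the study's own limits, beside 28.6% of all genes. In YHY against Ctrl, which was not planned by the series and shares mice with both other comparisons, 6 of the 9 fell, namely Bnip3, Fundc1, Opa1, Pink1, Bnip3l and Mfn2, and 2 rose, namely Dnm1l and Mfn1. Of all genes, 24.2% were lower and 26.1% higher in that comparison with TMM, a split that other scalings also change. The medians there were −0.76 for the 9 and 0.10 for all genes. All 9 passed the study's own limits there, beside 56.0% of all genes.

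**Figure D2:**
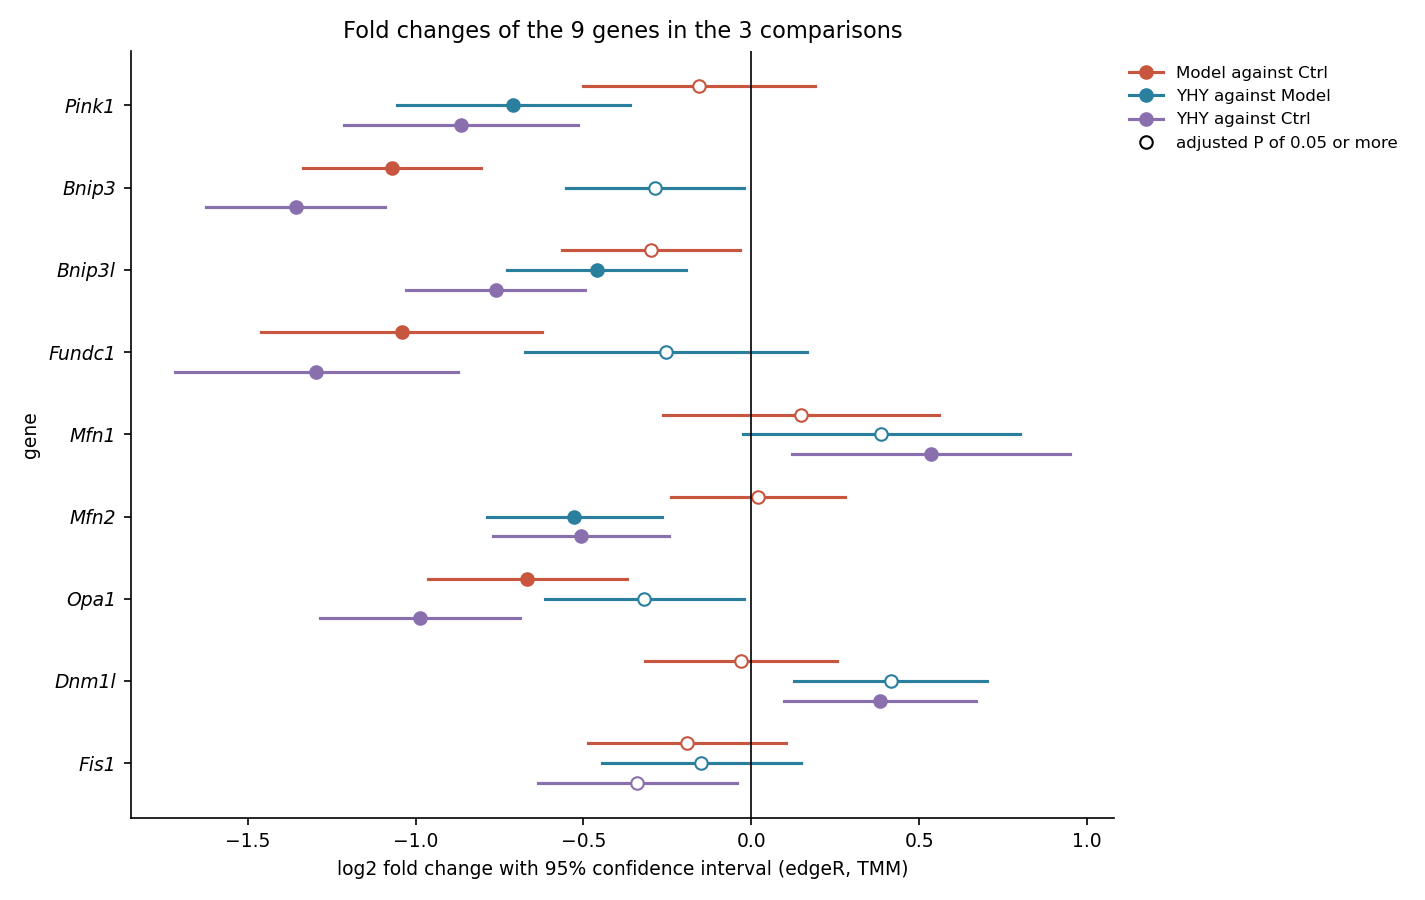
Log2 fold change of each gene on the horizontal axis with its 95% confidence interval, in Model against Ctrl, YHY against Model and YHY against Ctrl (edgeR with TMM scaling, 4 mice a group); filled points passed an adjusted P of 0.05 and open points did not. Bnip3, Fundc1 and Opa1 are filled in Model against Ctrl, and Pink1, Mfn2 and Bnip3l in YHY against Model.

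Bnip3, a receptor known as a target of hypoxia-inducible factor, lies on chromosome 7 (ENSMUSG00000078566, chr7:138492565-138511248, minus strand; positions of genes are on GRCm39). It was at 42.4, 41.3, 39.3 and 43.7 CPM in the 4 Ctrl mice, 20.2, 20.4, 21.2 and 17.6 in Model, and 14.8, 17.2, 17.7 and 15.4 under YHY. Every Ctrl mouse stood above every db/db mouse, while the Model and YHY groups overlapped. Here and for the other members, how many of all genes separate groups in this way was not computed. Bnip3 fell in Model (log2 fold change −1.07, SE 0.12, 95% confidence interval −1.33 to −0.80, adjusted P = 1.77e-05), to 47.7% of its Ctrl level. In YHY against Model its log2 fold change was −0.29 with adjusted P = 0.142, and no YHY mouse was near the Ctrl level.

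The promoter windows of Bnip3, Opa1 and Pink1 are shown, Bnip3 for its 5 matches to the hypoxia core and Opa1 and Pink1 for their match to the core of nuclear respiratory factor 1. Mfn2 also fell and has matches to the hypoxia core, and its window is not shown. RefSeq windows of 300 bases (250 before to 50 after the gene's start, build GRCm38.p6, which is not the build of the gene positions) matched 8 of the 9 genes by symbol, and Bnip3l had none. The 8 genes had 12 windows in all, and the matches of 1 window per gene are given. Bnip3 is at chr7:138909457-138909756 on the minus strand, Opa1 at chr16:29579084-29579383 on the plus strand and Pink1 at chr4:138326247-138326546 on the minus strand. Capitals mark, for Bnip3, the letters ACGTG or GCGTG on either strand, the core bound by hypoxia-inducible factors, and for Opa1 and Pink1 the letters GCGCNNGCGC, the core bound by nuclear respiratory factor 1.
Bnip3: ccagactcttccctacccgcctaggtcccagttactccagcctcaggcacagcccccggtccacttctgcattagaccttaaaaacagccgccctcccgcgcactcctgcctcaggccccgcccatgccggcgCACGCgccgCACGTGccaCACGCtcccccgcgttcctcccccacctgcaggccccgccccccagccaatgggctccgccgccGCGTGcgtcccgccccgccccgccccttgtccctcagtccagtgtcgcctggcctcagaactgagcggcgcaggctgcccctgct
Opa1: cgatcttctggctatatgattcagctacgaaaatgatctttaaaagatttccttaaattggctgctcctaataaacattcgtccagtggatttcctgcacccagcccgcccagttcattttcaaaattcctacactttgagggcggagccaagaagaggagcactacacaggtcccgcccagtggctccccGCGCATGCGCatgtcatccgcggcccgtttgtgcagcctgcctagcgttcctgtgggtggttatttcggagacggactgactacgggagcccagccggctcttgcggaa
Pink1: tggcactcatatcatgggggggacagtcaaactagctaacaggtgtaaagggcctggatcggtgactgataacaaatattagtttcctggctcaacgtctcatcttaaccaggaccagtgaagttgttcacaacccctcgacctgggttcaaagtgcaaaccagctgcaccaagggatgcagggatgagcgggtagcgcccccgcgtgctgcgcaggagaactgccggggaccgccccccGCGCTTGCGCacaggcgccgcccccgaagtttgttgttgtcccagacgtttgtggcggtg

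In the Bnip3 window, ACGTG occurs 2 times, at 108 and 107 bases before the start. These overlap as both strands of the palindrome CACGTG, the E-box. GCGTG occurs 3 times, at 117, 99 and 35 bases before the start, and GCGCNNGCGC occurs 1 time and is not capitalised there. Both strands were searched for 6 motifs chosen after the windows had been seen. Among 32851 windows of the same length, 19.6% hold ACGTG, 32.4% GCGTG, 7.15% CACGTG, 6.23% GCGCNNGCGC, 3.65% the forkhead letters TGTTTAC and 0.423% the oestrogen-related receptor letters TCAAGGTCA. The letters G and C made up 71.7% of the Bnip3 window, against a median of 52.7% over all windows. These shares were not matched for that. Mfn2 has 1 match each to ACGTG and GCGTG, and Pink1, Dnm1l and Fis1 have 1 match each to GCGTG. None of the 6 was found in the window given for Mfn1 or for Fundc1. The start that places the Fundc1 window lies 318 bases from the GENCODE start of the gene, the farthest of the 8. The forkhead and oestrogen-related receptor letters were found in none of the 8 windows given, and a match describes letters, not a bound site.

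Fundc1, a receptor known for mitophagy in low oxygen, lies on the X chromosome (ENSMUSG00000025040, chrX:17422803-17438564, minus strand). Its level was 27.2, 18.1, 26.6 and 25.7 CPM in Ctrl, 15.5, 10.2, 11.7 and 9.87 in Model and 12.9, 8.07, 10.2 and 8.63 under YHY. Ctrl mouse 2 was low within its group but still above every Model and YHY mouse. Fundc1 fell in Model (log2 fold change −1.04, SE 0.20, 95% confidence interval −1.46 to −0.62, adjusted P = 7.17e-04), and in YHY against Model it stood at −0.25 with adjusted P = 0.433. Without any 1 mouse, the value in YHY against Model ran from −0.41 to −0.0846. Fundc1 had the lowest counts of the 9 genes, 146 in the mouse where it was lowest.

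Bnip3l, the receptor that clears mitochondria from maturing red cells, lies on chromosome 14 (ENSMUSG00000022051, chr14:67222688-67246326, minus strand). It was at 85.0, 92.5, 100 and 95.7 CPM in Ctrl, 73.0, 71.0, 83.1 and 76.0 in Model and 57.5, 48.9, 59.7 and 54.1 under YHY. The 3 groups did not overlap, in the order Ctrl, Model, YHY. By edgeR with TMM on all 12 mice, the difference between Model and Ctrl was −0.30 with adjusted P = 0.0692, not called. Bnip3l was called lower there by DESeq2 (adjusted P = 0.0273), in a fit of only the 8 mice compared (0.0383) and with library size alone (0.00663). Library size without the mitochondrial genome turned its sign (0.0263, adjusted P = 0.903), and upper-quartile scaling gave −0.20 (0.242). Against Model, Bnip3l fell in YHY (log2 fold change −0.46, SE 0.13, 95% confidence interval −0.73 to −0.19, adjusted P = 0.0248). That call was lost without Model mouse 3 (adjusted P = 0.0896), Model mouse 4 (0.0519) or YHY mouse 2 (0.0582), with no filter (0.0765) and with 9 mice, without Ctrl 2, Model 1 and YHY 4 (0.0623), besides 2 scalings and the fit of the 8 mice compared (0.0971 to 0.188). Over all alternatives its adjusted P ranged from 0.00228 to 0.188. A processed pseudogene, Bnip3l-ps, had 27 to 167 counts, at most 4.15% of those of Bnip3l in a mouse.

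Pink1, the kinase that starts the ubiquitin arm, lies on chromosome 4 (ENSMUSG00000028756, chr4:138040720-138053618, minus strand). Its level was 246, 334, 285 and 218 CPM in Ctrl, 254, 231, 268 and 218 in Model and 142, 125, 160 and 167 under YHY. Ctrl and Model overlapped, with 2 Ctrl mice above every Model mouse, and every YHY mouse lay below every other mouse. Pink1 fell in YHY (log2 fold change −0.71, SE 0.16, 95% confidence interval −1.06 to −0.36, adjusted P = 0.0117), to 61.2% of its Model level, a call that library size alone ended (adjusted P = 0.0521). In Model against Ctrl its log2 fold change was −0.16 with adjusted P = 0.480, and library size alone called Pink1 lower there (−0.57, adjusted P = 0.0345) where library size without the mitochondrial genome turned its sign (0.18, adjusted P = 0.346).

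Mfn2, which fuses outer membranes and tethers mitochondria to the endoplasmic reticulum, lies on chromosome 4 (ENSMUSG00000029020, chr4:147958056-147989161, minus strand). It was at 90.8, 96.3, 95.6 and 110 CPM in Ctrl, 96.1, 99.5, 102 and 101 in Model and 66.8, 66.0, 75.8 and 68.0 under YHY. The Model mice lay within the Ctrl range and the YHY mice below both. Mfn2 fell in YHY (log2 fold change −0.53, SE 0.12, 95% confidence interval −0.79 to −0.27, adjusted P = 0.0121), a call ended by 2 scalings and by the fit of the 8 mice compared (adjusted P 0.0542 to 0.114). Model and Ctrl differed by 0.02 (adjusted P = 0.919). Its relative Mfn1 (ENSMUSG00000027668, chr3:32583614-32633388, plus strand) was at 66.4 to 71.7 CPM in Ctrl, 66.2 to 86.4 in Model and 92.7, 152, 70.8 and 84.1 under YHY. YHY mouse 2 was far above the other mice for Mfn1, and the YHY and Model groups overlapped. Mfn1 had log2 fold changes of 0.15 in Model against Ctrl (adjusted P = 0.579) and 0.39 in YHY against Model (adjusted P = 0.203). Without YHY mouse 2 the value in YHY against Model was 0.11. Mfn1 rose in YHY against Ctrl (0.53, adjusted P = 0.0310), a call lost without YHY mouse 2 (adjusted P = 0.151) and without any 1 of the 4 Ctrl mice (adjusted P 0.0628 to 0.101). The log2 fold change there ran from 0.26 to 0.66 without 1 mouse. Mfn1 was also not called there in the fit of only the 8 mice compared (0.0695) or with the replicate numbers as a block (0.0524).

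Opa1, which fuses inner membranes and holds cristae together, lies on chromosome 16 (ENSMUSG00000038084, chr16:29398152-29473702, plus strand). Its level was 68.5, 73.1, 80.6 and 70.2 CPM in Ctrl, 53.4, 46.3, 42.8 and 41.7 in Model and 35.4, 30.4, 38.1 and 43.6 under YHY. Every Ctrl mouse stood above every db/db mouse, and Model and YHY overlapped in part. Opa1 fell in Model (log2 fold change −0.67, SE 0.14, 95% confidence interval −0.96 to −0.37, adjusted P = 0.00153) to 63.0% of its Ctrl level, a call that library size without the mitochondrial genome ended (adjusted P = 0.0536). In YHY against Model it stood at −0.32 with adjusted P = 0.144.

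On the side of division, Dnm1l, the dynamin that constricts mitochondria, also lies on chromosome 16 (ENSMUSG00000022789, chr16:16130094-16176823, minus strand). It was at 66.3, 58.2, 66.6 and 60.3 CPM in Ctrl, 64.4, 62.4, 55.4 and 64.0 in Model and 80.2, 72.1, 75.8 and 100 under YHY. Ctrl and Model overlapped and every YHY mouse was above both. The difference between YHY and Model just missed the threshold (log2 fold change 0.41, SE 0.14, 95% confidence interval 0.13 to 0.70, adjusted P = 0.0537), and in Model against Ctrl it was −0.03 (adjusted P = 0.881). Dnm1l rose in YHY against Ctrl (0.38, adjusted P = 0.0262), a call lost without any 1 Ctrl mouse or YHY mouse 4 (adjusted P 0.0751 to 0.120), in the fit of only the 8 mice compared (0.0531), with no filter (0.126) and with 9 mice, without Ctrl 2, Model 1 and YHY 4 (0.236). Fis1, an outer-membrane protein to which fission factors bind (ENSMUSG00000019054, chr5:136982129-136995088, plus strand), was at 124 to 159 CPM in Ctrl, 107 to 131 in Model and 92.9 to 116 in YHY. By edgeR with TMM on all 12 mice, Fis1 was called in none of the 3 comparisons, with log2 fold changes of −0.19, −0.15 and, in YHY against Ctrl, −0.34 (adjusted P = 0.0529). In YHY against Ctrl, Fis1 was called lower by DESeq2 (adjusted P = 0.0256), with library size alone (0.00553), in a fit of only the 8 mice compared (0.0475), and without Ctrl mouse 1, Ctrl mouse 4 or Model mouse 1 (0.0261 to 0.0462). Library size alone also called Fis1 lower in Model against Ctrl (adjusted P = 0.0218). Library size without the mitochondrial genome turned its sign in both (0.14 each, adjusted P = 0.396 in YHY against Ctrl and 0.441 in Model against Ctrl), and upper-quartile scaling gave an adjusted P of 0.213 in YHY against Ctrl.

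Ratios of 2 genes within a mouse, in counts per kilobase, do not depend on how the library is scaled. The ratio of Opa1 to Dnm1l sets a single gene of fusion over a single gene of division. It was 0.683, 0.830, 0.80 and 0.768 in the Ctrl mice, 0.548, 0.489, 0.510 and 0.431 in Model and 0.292, 0.279, 0.332 and 0.288 under YHY. Its means were 0.770 ± 0.0634 (SD, n = 4), 0.495 ± 0.0489 and 0.298 ± 0.0236, and no 2 groups overlapped. Of the other fusion genes, Mfn1 had means of 11.3, 12.5 and 16.3 CPM per kilobase in Ctrl, Model and YHY. Those of Mfn2 were 18.9, 19.2 and 13.3. The ratio of Mfn1 to Mfn2 was 0.597 ± 0.0317 in Ctrl, 0.650 ± 0.0633 in Model and 1.24 ± 0.501 under YHY. Each YHY mouse, from 0.794 to 1.96, was above every Ctrl and Model mouse on that ratio, of which the highest was at 0.729. Between the receptors, Bnip3 to Bnip3l was 0.764 ± 0.0739 in Ctrl, 0.447 ± 0.0418 in Model and 0.507 ± 0.0674 under YHY, so Ctrl stood apart while Model and YHY overlapped. Pink1 to Bnip3, the kinase to the receptor, was 5.53 ± 1.18 in Ctrl, 10.4 ± 0.506 in Model and 7.79 ± 1.26 under YHY. Fundc1 to Bnip3l was 0.431 ± 0.0839 in Ctrl, 0.257 ± 0.0619 in Model and 0.295 ± 0.0491 under YHY, and each pair of groups overlapped. These ratios were given no test, being combinations of the 9 genes chosen by role. How many pairs of other genes separate the groups in the same way was not computed.

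**Figure D3:**
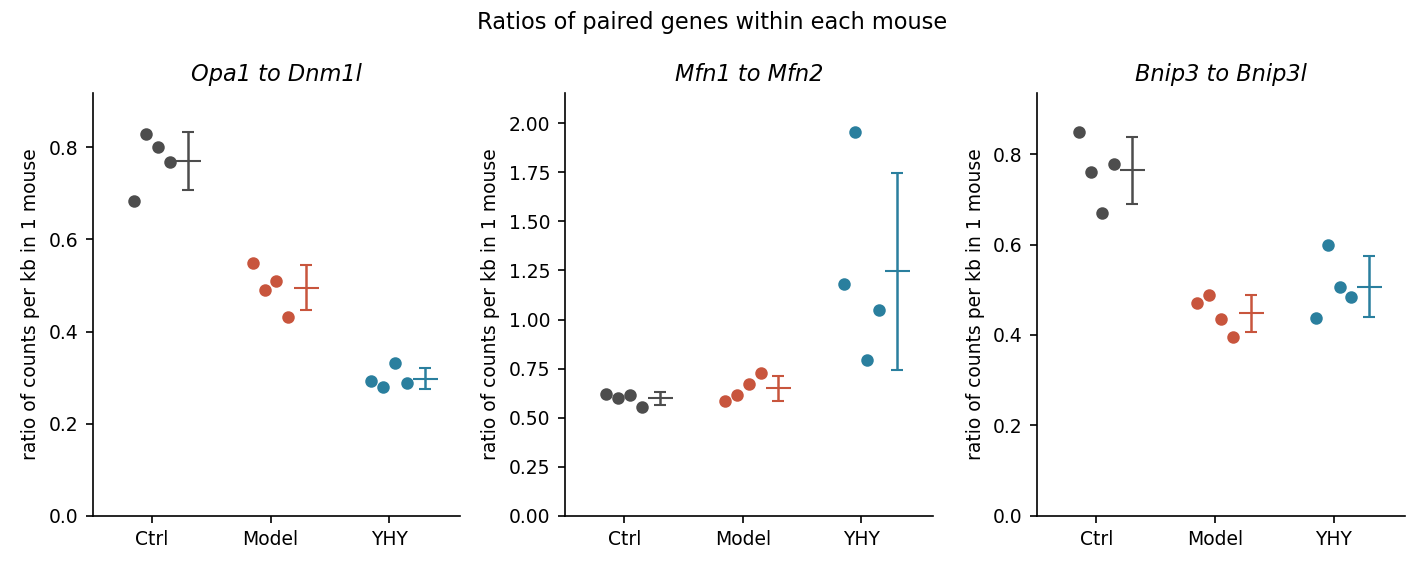
Ratio of counts per kilobase between 2 genes in each mouse, by group (n = 4 each); points are mice and crosses with whiskers the mean with its SD. The ratio of Opa1 to Dnm1l, a single gene of fusion over a single gene of division, steps down from 0.770 in Ctrl through 0.495 in Model to 0.298 in YHY without overlap.

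Other genes of the same pathways were followed as lists. In Model against Ctrl, the ubiquitin arm beside Pink1 had 10 of 17 genes lower and 0 higher (median log2 fold change −0.45). The outer-membrane channel Vdac3 was at −1.05 ± 0.16 (± SE), the import receptor Tomm70a at −0.88 ± 0.15, and Marchf5, a ubiquitin ligase of the outer membrane, at −0.76 ± 0.15. The adaptors that link ubiquitin to LC3 were split: Optn rose (1.32 ± 0.16), and Sqstm1 (p62, −1.09 ± 0.16), Nbr1 (−0.47 ± 0.15) and Tax1bp1 (−0.41 ± 0.14) fell, while Tbk1, a kinase of the adaptors that stands on their list, was at 0.45 ± 0.19 and not called. Calcoco2, the other adaptor on the list, had no counts. Among 9 other receptors and regulators, Fundc2 (−1.15 ± 0.17) and Csnk2a1 (−0.86 ± 0.15), a subunit of casein kinase 2, which phosphorylates Fundc1, fell, and Ulk1, the kinase that starts autophagy, rose (0.97 ± 0.20).

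In the same comparison, of 6 genes of fusion and Opa1 processing, 5 were lower and 0 higher (median −0.70; Phb at −0.21 was not called), with the Opa1-cleaving proteases Yme1l1 at −0.92 ± 0.15 and Oma1 at −0.79 ± 0.22, and the inner-membrane proteases Afg3l2 at −1.0 ± 0.13 and Spg7 at −0.57 ± 0.12. Of 8 genes of cristae organisation (the MICOS complex and its partner Samm50), 7 were lower and 0 higher (median −0.67; Micos10 at −0.40 was not called), led by Apool at −1.18 ± 0.19, Samm50 at −0.94 ± 0.17 and Apoo at −1.15 ± 0.22. Over all genes tested, 19.6% were called higher in Model against Ctrl and 18.5% lower with TMM. Fission adaptors and regulators had 2 of 12 higher and 3 lower (median −0.07). There, Inf2, which builds actin at sites of division, rose (0.87 ± 0.22), as did Mief2, which recruits Dnm1l (0.75 ± 0.22), while Mtfr1 (−0.97 ± 0.17), Slc25a46 (−0.49 ± 0.12) and Mief1 (−0.50 ± 0.18) fell. Among 5 genes of transport on microtubules, 1 was called with TMM, the motor adaptor Trak1 (0.59 ± 0.16), and DESeq2 called 1 higher and 1 lower. With libraries scaled to their counts outside the mitochondrial genome, 5 of the ubiquitin arm, 2 of the fusion list and 3 of the cristae list were still lower, with 1, 0 and 0 higher, where of all genes 1609 were lower and 5555 higher. With TMM, 0 genes of these 3 lists were higher by edgeR at an unadjusted P under 0.05 or called higher by DESeq2. The medians of the fission, transport, hypoxia and other-receptor lists were above 0 with that scaling outside the mitochondrial genome and below 0 with TMM.

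Other targets of the factors that act on Bnip3 were also followed. Of 16 targets of hypoxia-inducible factor, 2 were higher and 4 lower in Model against Ctrl (median −0.08). Of all genes tested, 19.6% were called higher there and 18.5% lower with TMM. The glycolytic enzymes Pgk1 (−1.53 ± 0.15) and Ldha (−1.29 ± 0.15) and the collagen hydroxylase P4ha1 (−1.02 ± 0.13) fell like Bnip3, whereas the kinase Pdk1 (0.93 ± 0.16) and the carbonic anhydrase Car9 (1.11 ± 0.30) rose. FoxO factors and their targets had 2 of 10 higher and 3 lower (median 0.01). Foxo3, known to act on Bnip3 in muscle, rose (1.30 ± 0.15), as did Foxo1 (0.50 ± 0.18). Catalase (Cat, −1.15 ± 0.25) and Sod2 (−0.50 ± 0.18), which detoxify peroxide and superoxide, fell, as did the cell cycle inhibitor Cdkn1b (−0.46 ± 0.16). The balance of directions depends on the scaling. With library size alone, edgeR called 0 hypoxia targets higher and 6 lower (1 higher at an unadjusted P under 0.05), 0 fission genes higher and 6 lower (0 higher at an unadjusted P under 0.05), and 1 FoxO gene higher and 4 lower. In that setting 0 transport genes were higher and 2 lower (0 and 3 at an unadjusted P under 0.05), and 1 other receptor higher and 4 lower. DESeq2, with its own size factors, called 3 hypoxia targets and 2 fission genes higher. With library size without the mitochondrial genome, 5 hypoxia targets were higher and 3 lower, 5 fission genes higher and 1 lower, 5 FoxO genes higher and 1 lower, and 4 other receptors higher and 2 lower, and 2 transport genes were higher.

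In YHY against Model the ubiquitin arm had 4 of 17 lower and 0 higher (median −0.34): the import receptors Tomm22 (−0.71 ± 0.14) and Tomm20 (−0.51 ± 0.14), the channel Vdac1 (−0.69 ± 0.17) and the prohibitin Phb2 (−0.43 ± 0.13), an inner-membrane receptor. At an unadjusted P under 0.05, 1 gene of that arm was higher, and DESeq2 called 0 higher. Tomm20 and Tomm22 belong to the import complex on which Pink1 is held. The other edgeR calls among the lists of mitochondrial genes were lower: Bcl2l13, a receptor of mitophagy (−0.73 ± 0.16), Mtfr1 (−0.70 ± 0.17), Phb (−0.55 ± 0.16), Apool (−0.65 ± 0.19), Micos13 (−0.64 ± 0.20) and the motor Kif5b (−0.40 ± 0.12). They were 1 of 9 other receptors, 1 of 12 fission genes and 1 of 6 fusion genes. The cristae list had 2 of 8 and transport 1 of 5. Of all genes tested, 7.62% were called lower in this comparison and 5.63% higher with TMM. In the fission list, DESeq2 called 1 gene higher, and at an unadjusted P under 0.05 edgeR had 3 higher and 2 lower. The fusion list had 1 higher and 2 lower at an unadjusted P under 0.05. Medians were −0.48 for the cristae list, −0.11 for fusion, −0.21 for other receptors, 0.05 for fission, 0.01 for transport and 0.13 for the adaptors, and with libraries scaled outside the mitochondrial genome that of fusion was 0.02. Of the 5 genes on the adaptor list, 0 were called by edgeR. At an unadjusted P under 0.05, 1 was higher and 0 lower, the kinase Tbk1 (0.55 ± 0.19, adjusted P = 0.0667), which was the 1 gene DESeq2 called higher. The 4 adaptors themselves stood at −0.29 to 0.21.

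Among targets of hypoxia-inducible factor, 2 were higher and 3 lower in YHY against Model (median −0.08, and 0.06 with libraries scaled outside the mitochondrial genome), with Ldha (−0.92 ± 0.15), Egln1 (−0.57 ± 0.12) and Car9 (−1.19 ± 0.31) falling and Kdm3a (0.59 ± 0.17) and P4ha2 (0.52 ± 0.16) rising. In the FoxO list, 2 of 10 were lower, Foxo4 (−0.50 ± 0.12) and Foxo3 (−0.47 ± 0.15), and 1 was higher, the stress protein Sesn1 (0.79 ± 0.21), with a median of −0.32. Scaled to library size alone, the ubiquitin arm, the cristae list and the other mitochondrial lists had 0 genes called in YHY against Model by edgeR. At an unadjusted P under 0.05 and that scaling, 7 of the ubiquitin arm and 2 of the cristae list were lower. That scaling also left 0 hypoxia targets called higher and 2 lower by edgeR (3 and 4 at an unadjusted P under 0.05), where DESeq2 called 3 and 3. Of the FoxO list it left 1 higher and 0 lower by edgeR (4 lower at an unadjusted P under 0.05), where DESeq2 called 3 lower.

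YHY against Ctrl shares its mice with the other comparisons, and its list values are given beside theirs. With TMM, 24.2% of all genes tested were called lower and 26.1% higher. The cristae list had 8 of 8 genes lower (median −1.22), fusion and Opa1 processing 6 of 6 (−0.75), and the ubiquitin arm 13 of 17 (−0.71), with 0 higher in each by edgeR. DESeq2 and an unadjusted P under 0.05 also gave 0 higher. With libraries scaled outside the mitochondrial genome, 6, 2 and 8 of them were lower and 0, 0 and 2 higher. Of all genes, 2140 were then lower and 7406 higher. With TMM, fission had 5 higher and 5 lower of 12 genes (0.02), and other receptors 1 and 4 of 9 (−0.42). Adaptors had 2 and 2 of 5 (−0.34) and transport 1 and 1 of 5 (−0.07). Targets of hypoxia-inducible factor had 5 and 5 of 16 (−0.07), and the FoxO list 2 and 2 of 10 (0.04). With library size alone, edgeR's counts higher and lower were 1 and 6 for fission, 1 and 6 for other receptors, 2 and 3 for adaptors, 1 and 4 for FoxO, 0 and 3 for transport and 0 and 5 for hypoxia targets. At an unadjusted P under 0.05 and that scaling, 0 transport genes and 2 hypoxia targets were higher, and DESeq2 with its own size factors called 1 and 5. With library size without the mitochondrial genome, fission had 6 higher and 1 lower, other receptors 1 and 1, adaptors 2 and 1, FoxO 5 and 2, and hypoxia targets 6 and 4, and 3 transport genes were higher.

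**Figure D4:**
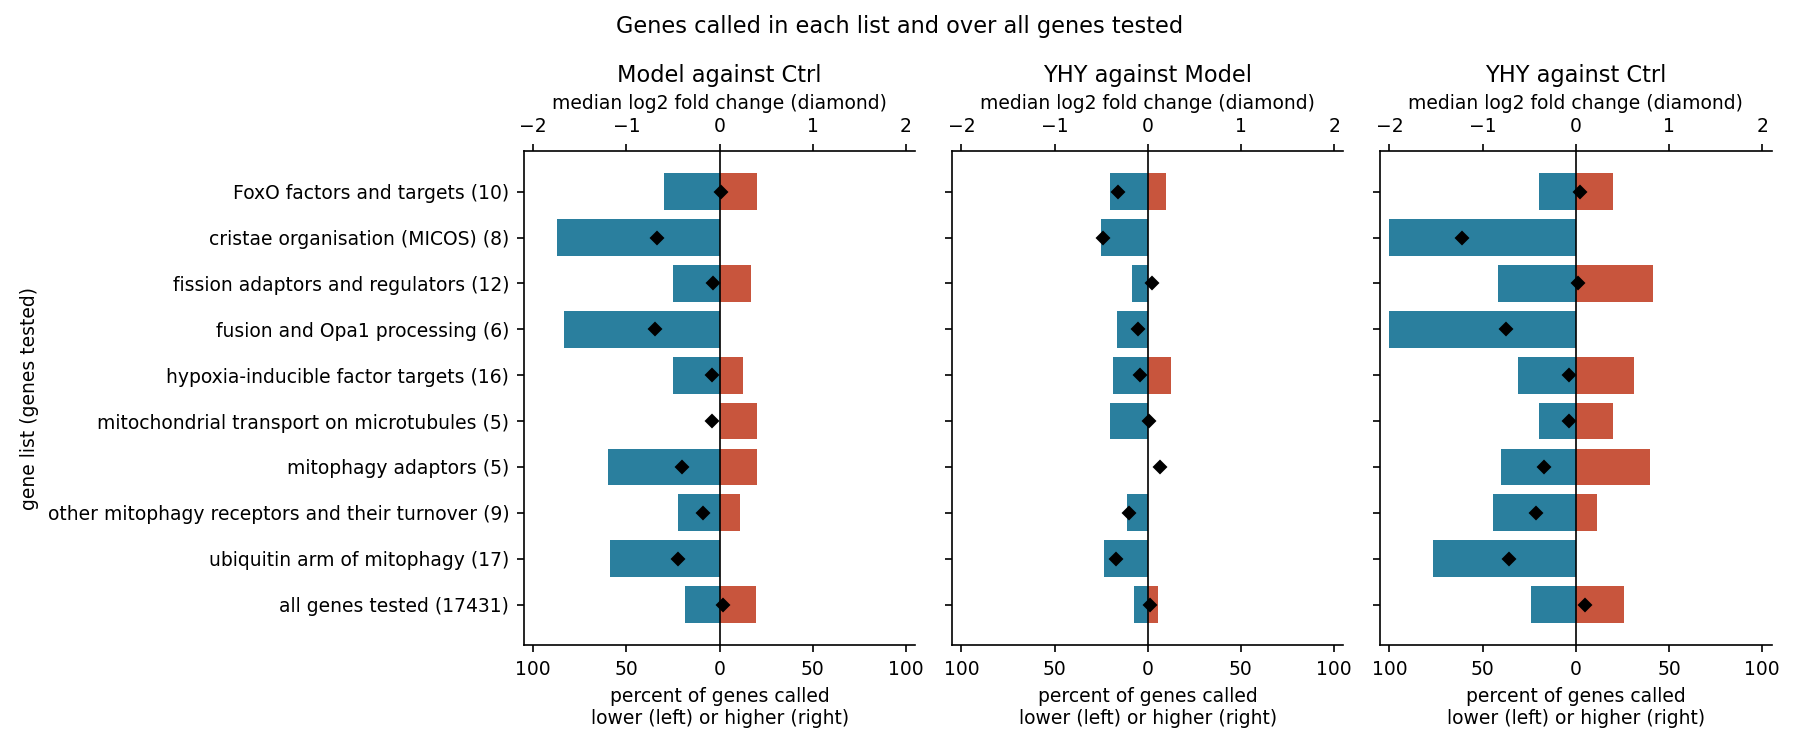
Percent of each list's tested genes called lower (bars to the left) or higher (bars to the right) by edgeR at an adjusted P under 0.05, with the median log2 fold change as a diamond on the upper axis, for the 3 comparisons and for all 17431 genes tested. In Model against Ctrl the diamonds of the fusion and cristae lists sit at −0.70 and −0.67 and those of the fission, transport, FoxO and hypoxia lists near 0, where scaling outside the mitochondrial genome puts all of these last 4 above it.

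Nuclear genes taken as a sign of mitochondrial content were also followed. Summed over 7 of them, Atp5a1 being the most abundant, the level was 2996, 2998, 3307 and 3052 CPM in the Ctrl mice, 1728, 1354, 1472 and 1365 in Model and 968, 915, 1136 and 1156 under YHY. Group means were 3089 ± 148, 1479 ± 174 and 1043 ± 120, with 7 lower in Model against Ctrl and 4 lower in YHY against Model. Vdac1 and Tomm20 are on this list and on that of the ubiquitin arm. Over the same groups the share of counts from the mitochondrial genome went the other way, from 19.5% through 52.2% to 56.8%. Nuclear-retained RNA, 3 genes of which Neat1 was the most abundant, summed to 363, 377, 303 and 293 CPM in the Ctrl mice, 552, 1035, 722 and 638 in Model and 1316, 1280, 1106 and 1519 under YHY. No mice overlapped between the 3 groups (means 334 ± 41.9, 737 ± 211 and 1305 ± 169), with 3 higher in Model against Ctrl and 2 higher in YHY against Model. The part of these shifts in the levels of the 9 genes was not tested.

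Cell type markers also differed between the groups, and in whole tissue fewer cells of a type and less RNA per cell cannot be told apart. The 5 proximal tubule markers, led by Slc34a1, summed to 3610, 4916, 3845 and 3081 CPM in the Ctrl mice, 3137, 3095, 3332 and 2456 in Model and 1274, 2937, 1826 and 3574 under YHY. Means were 3863 ± 771, 3005 ± 380 and 2403 ± 1043, the groups overlapped, and 2 of the 5 were lower in Model against Ctrl (Lrp2 at −1.68 ± 0.29 and Cubn at −0.90 ± 0.21, the scavenger receptors of protein uptake). Slc22a6 (−0.73 ± 0.30), Slc34a1 (0.06 ± 0.29) and Slc5a2 (0.42 ± 0.53) were not called there. Thick ascending limb and distal tubule markers (3, led by Slc12a1) summed to 1842 ± 477, 1233 ± 160 and 1609 ± 427. Of these, Umod was lower (−2.86 ± 0.38) and Slc12a3 higher (1.33 ± 0.22) in Model against Ctrl, and Slc12a1 was at −0.05 ± 0.27. Collecting duct markers (3, led by Aqp2) summed to 764 ± 390, 344 ± 65.5 and 289 ± 184, with Aqp2 (−1.18 ± 0.42) and Aqp3 (−1.72 ± 0.30) lower in Model against Ctrl. Slc4a1 was at −0.13 ± 0.30 there and not called. Nphs1 (nephrin), made by podocytes, rose in Model (1.86 ± 0.25). Endothelial markers (4, led by Emcn) were at 142 ± 26.8, 145 ± 21.2 and 147 ± 51.3, and those of mesangium and fibroblasts (3, led by Col3a1) at 86.3 ± 14.4, 93.3 ± 14.0 and 107 ± 49.4, with Pdgfrb higher in Model against Ctrl (0.51 ± 0.17). Col1a1 (−0.52 ± 0.34) and Col3a1 (0.03 ± 0.35) were not called in that comparison. Macrophage markers (4, led by Lyz2) were at 153 ± 26.9, 212 ± 50.7 and 272 ± 128 CPM, with groups that overlapped. Cd68 was higher in Model against Ctrl (1.05 ± 0.28). Lyz2 (0.73 ± 0.31), Adgre1 (0.02 ± 0.40) and Csf1r (−0.09 ± 0.25) were not called there.

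Cells that a kidney sample can carry along were also looked for. Erythroid transcripts (5, led by Hba-a1) summed to 455 ± 166 CPM in Ctrl, 367 ± 101 in Model and 667 ± 326 under YHY, with 3 lower and 1 higher (Hba-a2, 0.70 ± 0.26) in Model against Ctrl and 2 higher in YHY against Model. Lymphocyte markers (3, led by Cd79a) summed to 0.465 to 1.22 CPM in Ctrl, 0.129 to 0.456 in Model and 0.271 to 0.686 in YHY. Of 3 adipocyte markers, the defining Adipoq and Plin1 were under 0.5 CPM in every mouse, and Fabp4, which endothelium also makes, brought the sum to 53.4 ± 8.92, 54.1 ± 5.08 and 64.6 ± 17.3. All 3 markers of adrenal cortex were under 0.5 CPM in every mouse. The part of the differences in tubule markers, Nphs1, Cd68 and erythroid transcripts in the results for the 9 genes was not tested.

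The scaling sets where 0 lies. Against TMM, library size alone moved the median of all genes by −0.43 (log2) in Model against Ctrl, library size without the mitochondrial genome by 0.33 and upper-quartile scaling by 0.10. In YHY against Model, library size without the mitochondrial genome moved it by 0.14, and in YHY against Ctrl the 3 shifts were −0.43, 0.46 and 0.12. The counts of genes called differed by scaling too. In Model against Ctrl, TMM had 3412 genes higher and 3219 lower, library size alone 1547 and 5670, and library size without the mitochondrial genome 5555 and 1609. The same 3 scalings gave 982 and 1329, 491 and 687, and 1509 and 830 in YHY against Model, and 4547 and 4215, 2365 and 5979, and 7406 and 2140 in YHY against Ctrl. Levels in CPM moved too, the mean of Pink1 in Ctrl from 270 with TMM to 494 with TMM over genes outside the mitochondrial genome, and that of Bnip3 in Model from 19.8 to 37.8 with library size without the mitochondrial genome. A scaling shifts all genes of a library alike, so a log2 fold change relative to the median of all genes is nearly the same under any of the 6 by construction, and its small range says nothing of how firm a difference is. In Model against Ctrl, Bnip3 was at −1.11, Fundc1 at −1.1 to −1.07 and Opa1 at −0.71 to −0.69 on that relative scale. In YHY against Model, Pink1 was at −0.73 to −0.72, Mfn2 at −0.55 to −0.54, Bnip3l at −0.48 to −0.47 and Dnm1l at 0.38 to 0.39.

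Scaled to library size without the mitochondrial genome, Opa1 was no longer called in Model against Ctrl (log2 fold change −0.34, adjusted P = 0.0536), and under that scaling neither were Mfn2 (adjusted P = 0.0899) and Bnip3l (0.161) in YHY against Model. Scaled to library size alone, Pink1 (log2 fold change −0.69, adjusted P = 0.0521), Mfn2 (−0.51, 0.114) and Bnip3l (−0.44, 0.188) were not called in YHY against Model. With TMM these log2 fold changes were −0.71, −0.53 and −0.46, and the median of all genes lay 0.00388 from its value with TMM. In a fit of only the 8 Model and YHY mice, Mfn2 (adjusted P = 0.0542) and Bnip3l (0.0971) were not called. Bnip3 and Fundc1 in Model against Ctrl were lower and called under each scaling. Over all alternatives, the adjusted P ran from 2.44e-05 to 0.0536 for Opa1 in Model against Ctrl. For YHY against Model it ran from 3.74e-04 to 0.0521 for Pink1, from 7.77e-05 to 0.114 for Mfn2 and from 0.0149 to 0.217 for Dnm1l. Dnm1l in YHY against Model passed under DESeq2 (adjusted P = 0.0149), upper-quartile scaling (0.0415), library size without the mitochondrial genome (0.0172), at least 10 counts in every sample (0.0347), without YHY mouse 2 (0.0442) and TMM over genes outside the mitochondrial genome (0.0418), the last chosen after the data were seen. In YHY against Ctrl, library size without the mitochondrial genome ended the calls of Mfn2 (log2 fold change −0.04, adjusted P = 0.831) and Bnip3l (0.103), and library size alone that of Mfn1 (0.841) and of Dnm1l, whose sign it turned (−0.0439, adjusted P = 0.875). The adjusted P there ran from 5.99e-04 to 0.841 for Mfn1, from 9.83e-05 to 0.875 for Dnm1l, from 1.64e-05 to 0.831 for Mfn2, from 1.72e-09 to 0.103 for Bnip3l and from 0.00553 to 0.396 for Fis1.

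**Figure D5:**
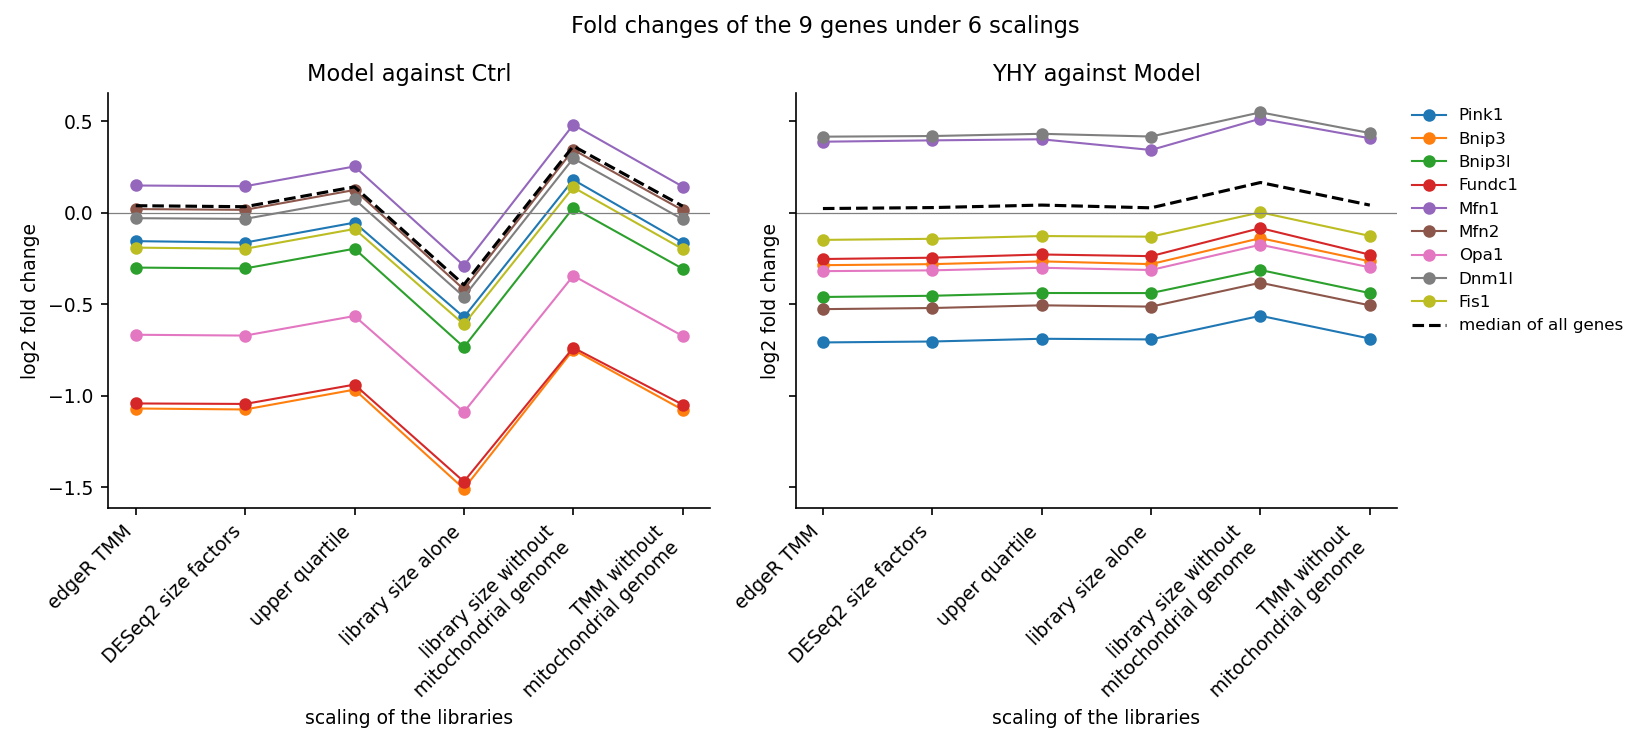
Log2 fold change of the 9 genes under 6 ways of scaling the libraries, in Model against Ctrl and YHY against Model; lines join the values of 1 gene and the dashed line is the median of all genes tested. Members move together by the shift of all genes, and Bnip3, Fundc1 and Opa1 stay below 0 under each scaling. In Model against Ctrl, Pink1, Bnip3l, Dnm1l and Fis1 cross 0 with library size outside the mitochondrial genome, and Mfn1 and Mfn2 with library size alone. Dnm1l also crosses 0 there with upper-quartile scaling. In YHY against Model, Fis1 crosses 0 with library size outside the mitochondrial genome.

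For each of the 9, the gene most like it over the 12 mice was sought by Pearson's r of log2 CPM among 13024 other genes. Since the groups differ, a high r over all mice can come from the group means alone, and the r of deviations from those means is given beside it as the r within groups, with no test. The nearest to Bnip3 was Tpi1 (r = 0.987, and 0.271 within groups), the glycolytic triosephosphate isomerase. For Bnip3l it was Mtch1 (r = 0.982, and 0.837 within groups), a carrier homologue of the outer membrane, and for Fundc1 Cnih1 (r = 0.986, and 0.922 within groups). Pink1 was nearest to Iqcg (r = 0.983, and 0.916 within groups) and Mfn2 to Vegfb (r = 0.977, and 0.874 within groups), a vascular growth factor. Opa1 was nearest to Thoc3 (r = 0.988, and 0.917 within groups), of the complex that couples transcription to export, Mfn1 to Ccnk (r = 0.953, and 0.952 within groups) and Dnm1l to Mysm1 (r = 0.955, and 0.883 within groups). Fis1 was nearest to the processed pseudogene Gm4332 (r = 0.947, and 0.920 within groups). Each partner was picked as the highest r over the same mice, which also favours a high r within groups, and the r to expect from such a choice was not computed.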

How the data were processed

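Per the labels, the authors trimmed the reads with Trimmomatic 0.39, aligned them with HISAT2 2.2.1 to GRCm39 (mm39) and counted them per gene with featureCounts 2.0.1, and whether strand was used in counting is not stated. The deposited values used here are raw counts. The authors' deposited tables of differential expression, with 12 further columns headed by mouse, were not used, since their headers leave out some mice and give YHY 3 in 2 columns of 1 table. From the counts, edgeR 4.0.16 was run with TMM scaling and its filter on low counts, as 1 quasi-likelihood fit of the 12 mice in 3 groups, with two-sided tests and Benjamini-Hochberg adjustment over the 17431 genes tested. A gene was called at an adjusted P under 0.05. CPM, and CPM per kilobase of the deposited gene length, were computed from the counts and TMM-scaled totals. Annotated genes that overlap the 9 had at most 6 counts in any mouse.

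All 9 genes are named. From each pathway list, the called genes with the smallest adjusted P, up to 3 in each direction, were named for each comparison except YHY against Ctrl, with further ones for their known role. For YHY against Ctrl the lists are given as counts and medians only. Of the cell markers, not all those called are named. Named too is, for each of the 9, the gene with the highest r among genes with a mean count of at least 50. The members and lists were chosen with earlier results of these data known, so their counts and medians are descriptions. The adaptor Calcoco2, Gdap1 of the fission list and Pld6 of the fusion list were not tested.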

Additional observations from a re-analysis of the deposited data

Results flagged for a closer look

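Within groups of 4 mice, a mouse was picked out when its gap to the nearest other mouse was a larger share of the group's range than Dixon's 95% critical value allows. Chance picks out about 1 in 20 groups, and 87 groups were looked at. For Fundc1, Ctrl mouse 2 was at 18.1 CPM and the other Ctrl mice at 25.7 to 27.2. The same mouse had 22.7% of its counts from the mitochondrial genome, against 18.4% to 18.6%, a total of 29632718 counts, against 32677732 to 33276634, and 101.8 CPM summed over endothelial markers, against 150.7 to 160.2. For Fis1, YHY mouse 2 was at 92.9 CPM and the others at 112.6 to 115.9, and this mouse had 64.6% of its counts from the mitochondrial genome, against 53.8% to 54.6%. The ratio of Fundc1 to Bnip3l was 0.368 in YHY mouse 1 and 0.262 to 0.279 in the other YHY mice. Lymphocyte markers summed to 1.22 CPM in Ctrl mouse 1, against 0.465 to 0.546. Adrenal cortex markers summed to 0.381 CPM in Model mouse 2 and 0.0774 CPM in YHY mouse 4, and were at 0 in the other mice of those groups. Why these mice stand apart was not tested.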

How the results depend on the processing

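Over 23 alternatives, 621 values of the members' log2 fold changes were obtained: 551 kept their direction and their side of the threshold, 32 lost a call, 20 gained a call and 18 changed sign. Among the 23 is a two-sided exact permutation test of log2 CPM over mice, which can go no lower than 0.0286 and was read at an unadjusted P under 0.05. It accounts for 3 of the gains (Bnip3l in Model against Ctrl, Dnm1l in YHY against Model, Fis1 in YHY against Ctrl) and 1 of the losses (Mfn1 in YHY against Ctrl). Without any 1 mouse, 3 members were called for Model against Ctrl in each case, 2 to 3 for YHY against Model and 6 to 9 for YHY against Ctrl. The genes called without 1 mouse ran from 5292 to 7093, from 1146 (without Model mouse 3) to 2721 and from 7806 to 8915. Scaled to library size alone, 6 members were called lower in Model against Ctrl, as were 5670 of all genes, with 1547 higher. In YHY against Model that scaling gave 0 members by edgeR (3 lower at an unadjusted P under 0.05) and 1178 genes. With only the 8 mice compared, 1 member and 1385 genes were called in YHY against Model. By the study's limits on fold change and unadjusted P, in the fit of all 12 mice, 6 members and 4988 genes passed there. The replicate numbers were also used as a block, although the mice are separate animals: 3, 3 and 7 members and 6289, 1920 and 8424 genes were then called in the 3 comparisons. Among 12 same-numbered pairs of mice, deviations from the group means had a median r of 0.00453.

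Values that changed sign, none of them called under that alternative, were as follows. Scaled to library size without the mitochondrial genome, Model against Ctrl gave 0.18 for Pink1, 0.0263 for Bnip3l, 0.30 for Dnm1l and 0.14 for Fis1, YHY against Model gave 0.0015 for Fis1, and YHY against Ctrl 0.14 for Fis1. Scaled to library size alone, Model against Ctrl gave −0.29 for Mfn1 and −0.42 for Mfn2, and YHY against Ctrl −0.0439 for Dnm1l. For Mfn2 in Model against Ctrl, the value was −0.0086 with no filter, −8.96e-04 with the 8 mice and −0.0278 with 9 mice (without Ctrl 2, Model 1 and YHY 4), and ran from −0.0665 to 0.0278 without 1 mouse. For Dnm1l in Model against Ctrl, it was 0.0728 with upper-quartile scaling and 0.0129 with at least 10 counts in every sample, and ran from −0.11 to 0.0151 without 1 mouse. The cause of these changes was not tested, apart from the scalings, which shift all genes by construction. Of 594 counts of genes called in the lists, 498 stayed within 1.5 times the count given. All 60 mean ratios without 1 mouse stayed within 1 SD. Leaving out 1 of 4 mice cannot move a mean that far, so this says nothing of how firm the ratios are. Of 216 mean CPM values, 72 moved by more than 1 SD, all of them under another scaling. The values without 1 mouse among the 216 could not move that far, so their staying is no sign of stability.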
